A study of Mus musculus with 40 samples.

Results

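The nuclear genes for the subunits and assembly factors of the 5 complexes of the mitochondrial respiratory chain were followed in mouse embryonic stem (ES) cells. Members were chosen by symbol alone. These were the genes whose names begin with Nduf (complex I), Sdha to Sdhd and their assembly factors Sdhaf2 and Sdhaf4 (complex II), Uqcr (complex III), Cox4 to Cox8 (complex IV) or Atp5 (complex V). Over the 3 array designs the rule found 77 genes. They were 68 genes with 71 probes among the 20727 genes and unnamed probes of the late arrays, and 76 genes with 102 probes among 39010 on the early arrays and among 37680 on the Nanog arrays. Ndufa4 was counted with complex IV, to which its protein belongs. Genes of the rule that no probe could be tied to (for example Sdha, Ndufs3, Ndufv2 and Atp5c1) are not analysed here.

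Complex I takes electrons from NADH and complex II takes them from succinate, as a member of the tricarboxylic acid cycle. Both pass them to ubiquinone, complex III moves them on to cytochrome c, and complex IV hands them to oxygen. Complexes I, III and IV pump protons out of the matrix, and complex V, the ATP synthase, uses the returning protons to make ATP. The genes described here are all nuclear. Other subunits are encoded in the mitochondrial genome and were outside the rule. Pluripotent ES cells are known to make much of their ATP by glycolysis, with small and immature mitochondria, and the balance between the pathways is known to shift as they differentiate.

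Late arrays measured cells titled ZHBTc4. Early arrays are titled Oct4KO, and the methods name ZHBTc4 for them. ZHBTc4 is a male 129/Ola line in which both endogenous Pou5f1 alleles are inactivated and a Pou5f1 transgene is shut off by tetracycline (Tet). Pou5f1 encodes the pluripotency factor OCT4, and cells that lose it turn into trophoblast. The cells grew without feeders on gelatin in medium with leukemia inhibitory factor (LIF), so every group, 0 hr included, carried the same transgene and medium. The treatment label of the late arrays describes a different inducible ES line, and the titles were followed. Late arrays covered 0 hr (before Tet) and 24, 48, 72, 96 or 120 hr in Tet with 3 arrays a time (18 arrays), and early arrays covered 0, 3, 6, 12 and 24 hr with 2 arrays a time (10 arrays). The 12 Nanog arrays covered 4 lines, each in LIF medium, in LIF-free medium (noLIF) and in LIF medium with 1 µM retinoic acid (RA), with 1 array a line and medium. The lines were integratedNanog (Nanog/EF1#6, 129SvEv-Tac, with Nanog in a pEF6/IRES neo vector), ES129.3, which was set against it because both carry the same strain label, episomalNanog (129Sv, with Nanog on a pPyCAGIP episome) and its parent MG1.19, which expresses polyoma large T. The methods name the parent of the integrated clone MC1, so ES129.3 may not be its own parent. Each Nanog line is 1 clone. In tests of a medium the 4 lines stood as replicates, and in tests of a clone the 3 media did. On every array the Cy3 dye carried the sample and the Cy5 dye carried the Universal Mouse Reference RNA, with no dye swap. All values are log2 of sample over reference, and a change is the difference of group means on that scale with the standard error (SE) of the fit. A gene was called where limma's Benjamini-Hochberg adjusted p was at most 0.05 and the change at least 1.5-fold.

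The median Cy3 signal of an array lay between 596 and 776 on late, 595 and 672 on early and 531 and 662 on Nanog arrays. Arrays of the same time correlated at 0.960 to 0.994 (late) and 0.957 to 0.981 (early). On the Pou5f1 probe shared by both designs, 24 hr of Tet lowered Pou5f1 by 2.18 (SE 0.27, adjusted p = 1.6e-04) on late and by 2.79 (SE 0.33, adjusted p = 1.5e-04) on early arrays. The early design has another, brighter Pou5f1 probe, and the probes disagreed. It read 3.97 on both arrays before Tet and 3.46 and 3.38 after 24 hr, a change of -0.55 (SE 0.15, adjusted p = 0.028) under the fold limit. By 120 hr, 7 of 9 ES cell markers were called lower and 6 of 9 measured trophoblast markers were called higher on late arrays. The summed Cy3 signal of the ES cell markers went from 134092 to 172462 at 0 hr to between 13432 and 17821 at 120 hr, and that of the trophoblast markers from 8035 to 9383 to between 132060 and 180174. The other lists had 2 of 6 (primitive endoderm), 1 of 5 (mesoderm and muscle), 1 of 4 (neural) and 0 of 4 (fibroblast) markers called higher, and none lower, at 120 hr. Of 3 genes that respond to LIF or RA, 2 were called lower at 120 hr although the medium was the same, the LIF target Socs3 (-1.52) and Stra8 (-2.99). No array after 0 hr was without Tet. The change in cell type, the time in Tet and the time in culture cannot be told apart in these groups. In bulk RNA, fewer cells of a type and less RNA per cell cannot be told apart either.

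Late arrays carried the larger response. Members were called over all times where limma's moderated F test over the times passed and the largest change reached 1.5-fold. Of 67 members tested, 22 were called lower by that test, 9 were called higher, and none was called in both directions at single times. The shares were 32.8% lower against 10.4% of all genes and unnamed probes, and 13.4% higher against 14.2%. Among probes with a gene name the shares were 14.9% lower and 19.9% higher. The authors' normalized values gave a different split, with 14 members higher (20.4% of all genes) and 10 lower (7.65%), on a scale on which the median largest change of all genes was 0.12 instead of -0.02.

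The early part of the course held more of the higher calls and its end more of the lower ones. At 24 hr, 6 members were called higher (3.95% of all genes) and 3 lower (3.62%). At 48 hr the counts were 6 higher (5.44%) and 11 lower (4.8%), and at 72 hr they were 5 higher (7.94%) and 12 lower (6.39%). At 96 hr they were 3 higher (10.6%) and 17 lower (7.25%). At 120 hr 18 members were called lower, 26.9% of those tested against 8.53% of all genes and 12.5% of probes with a gene name. Only 3 were called higher, 4.48% against 12.1% and 16.8%. The members' median change at 120 hr was -0.22 against 0.00 for all genes, and 44 of 67 lay below 0. On the authors' normalized values 7 members were lower (6.28% of all genes) and 5 higher (16.7%) at 120 hr with a median of -0.01 (0.05 for all genes), and 10 of the 21 calls were shared, although all 21 kept their direction. The Cy3 signal taken alone gave 28 lower and 2 higher, where it called 12.4% of all genes lower and 12.1% higher.

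**Figure D1:**
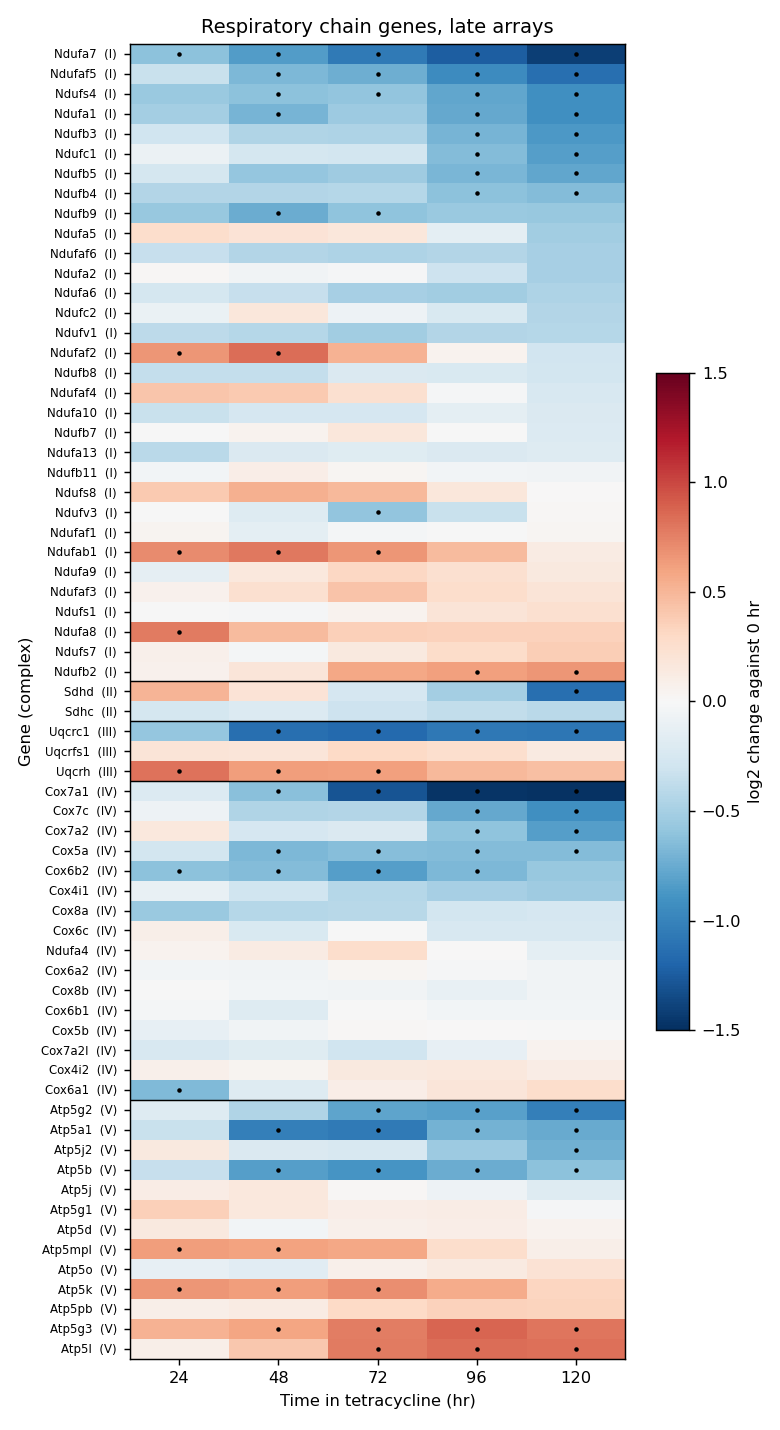
Change in log2(sample/reference) against 0 hr for 66 of the 67 members tested on late arrays (rows, by complex) at each time in tetracycline (columns, hr), with 3 arrays a group and a dot where a gene was called. Blue is lower and red is higher: 18 members carry a dot in blue at 120 hr and 3 in red.

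Complex I accounted for 8 of the 18 lower calls at 120 hr, out of 33 members tested, with 1 higher call and a median of -0.27. They were accessory subunits, which surround the catalytic core (7 of 22 lower, median -0.45), and an assembly factor (1 of 6 lower). None of the 5 core subunits was called. Among the core, Ndufv1, which binds NADH, stood at -0.43 (adjusted p = 5.5e-06) and missed the fold limit, and Ndufs1, Ndufs7 and Ndufs8 stood at 0.24, 0.37 and 0.00. The difference between core and accessory subunits was not tested.

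Ndufa7, an accessory subunit of the matrix arm, was the only member called lower at all 5 times, although at 24 hr it missed the fold limit without replicate 2 of 0 hr (-0.58). Its values were 0.45, 0.58 and 0.52 before Tet, -0.03, -0.14 and -0.12 after 24 hr, and -0.70, -0.95 and -1.03 after 120 hr. All arrays of each later time lay below all arrays at 0 hr. The change was -0.61 after 24 hr, -1.06 after 72 hr and -1.41 after 120 hr (SE 0.10, adjusted p = 2.1e-09, 2.66-fold).

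Ndufaf5, an assembly factor of complex I, read 0.52, 0.50 and 0.68 before Tet and -0.71, -0.43 and -0.55 after 120 hr, with no overlap. It fell by 1.13 (SE 0.09, adjusted p = 7.5e-09). Ndufs4, an accessory subunit that stabilises the NADH-oxidising module, fell by 0.92 (SE 0.08, adjusted p = 3.4e-08), and its values went from 0.24, 0.44 and 0.42 to -0.65, -0.48 and -0.53. Ndufa1, an accessory subunit needed for assembly of the membrane arm, fell by 0.92 (SE 0.11, adjusted p = 2.7e-06), from -0.10, 0.17 and -0.02 to -0.64, -1.01 and -1.05. In each of these genes the 3 arrays at 120 hr lay below the 3 at 0 hr. The other lower calls at 120 hr were Ndufb3, Ndufc1, Ndufb5 and Ndufb4, with changes of -0.86 to -0.65. Both probes of Ndufb4 moved the same way (-0.65 and -0.78).

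Ndufab1, Ndufa8 and Ndufaf2 were called higher early and not at the end. Ndufab1 is the mitochondrial acyl carrier protein, which also sits in complex I. It read 0.15, 0.27 and 0.39 before Tet, 0.91, 0.98 and 1.03 after 24 hr, and 0.32, 0.46 and 0.40 after 120 hr. The 24 hr arrays stood above both other groups, which overlapped. It rose by 0.71 at 24 hr (adjusted p = 3.4e-07) and stood at 0.12 at 120 hr. Ndufa8, an accessory subunit, had values of -1.13, -1.02 and -1.06 at 0 hr and -0.37 and -0.22 on the 2 arrays at 24 hr with a usable spot. It rose by 0.77 at 24 hr (adjusted p = 5.0e-07). Ndufaf2, an assembly factor, rose by 0.66 after 24 hr and 0.84 after 48 hr and stood at -0.28 after 120 hr. Its 24 hr call was lost in 1 of the runs with an array left out. The summed Cy3 signal of the 4 fibroblast (feeder) markers also stood highest early, at 4947 to 7672 before Tet, 9093 to 16632 after 24 hr, 8680 to 11503 after 48 hr and 3704 to 5895 after 120 hr, with 1 of 4 called higher after 24 and 48 hr. The median change of these 4 markers was -0.10 after 24 hr and -0.07 after 48 hr, so the list as a whole did not rise with the sum. Their part in these results was not tested. Ndufb2 was the only complex I member called higher at 120 hr (0.67, adjusted p = 7.6e-05), from -0.71, -0.66 and -0.89 to 0.16, -0.24 and -0.18. The Cy3 signal alone gave Ndufb2 a change of 0.19 (adjusted p = 0.24), and its Cy5 reference signal changed by -0.29. The Ndufb2 call was also lost with the correction for Cy5 bleaching and in 1 of the runs with an array left out.

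**Figure D2:**
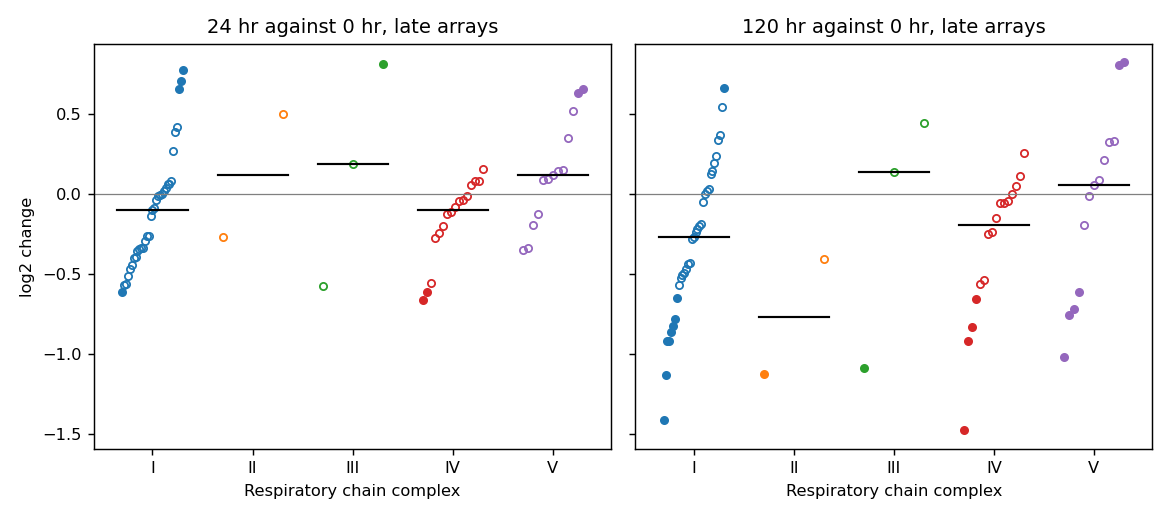
Change in log2(sample/reference) of each member at 24 hr (left) and 120 hr (right) against 0 hr on late arrays, by complex. Filled points were called, open points were not, and the bar is the median of the complex: at 120 hr complex I has its median at -0.27, complex IV at -0.19 and complex V at 0.06.

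Complex II was represented by only Sdhc and Sdhd on late arrays, the membrane anchors of succinate dehydrogenase. Sdhd read 0.45 and 0.60 on the 2 arrays with a usable spot before Tet, 1.05, 1.17 and 0.88 after 24 hr, and -0.69, -0.47 and -0.64 after 120 hr. The 24 hr arrays lay above 0 hr and the 120 hr arrays below it. The 24 hr change was 0.50 (adjusted p = 5.9e-04), which missed the fold limit. At 120 hr Sdhd fell by 1.13 (SE 0.09, adjusted p = 5.5e-08, 2.18-fold), and by 0.51 (adjusted p = 0.0046) on the authors' normalized values, where it missed the fold limit. Sdhc stood at -0.40 at 120 hr (adjusted p = 1.2e-05), without a call.

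Complex III had 3 tested members, which moved apart. Uqcrc1, a core protein of the complex, read 0.87, 1.16 and 1.34 before Tet, -0.06, -0.04 and 0.10 after 48 hr and -0.30, 0.15 and 0.28 after 120 hr. At 24 hr the arrays spread from 0.01 to 1.02 and overlapped 0 hr. Uqcrc1 fell by 1.13 after 48 hr and 1.17 after 72 hr, and by 1.08 after 120 hr (SE 0.20, adjusted p = 2.1e-04). Uqcrh, the hinge protein, went the other way. It read -2.40, -2.24 and -2.27 before Tet, -1.55 and -1.44 after 24 hr on 2 usable arrays, and -1.65, -1.97 and -1.95 after 120 hr, so no later array reached down to 0 hr. It rose by 0.81 at 24 hr (adjusted p = 4.8e-05) and stood at 0.45 at 120 hr, below the fold limit. Uqcrfs1, the Rieske iron-sulfur protein, stood between 0.14 and 0.30 at every time and was not called. Uqcrc2, the partner of Uqcrc1, could not be tested, since no array at 0 hr had a usable spot after outlier spots were dropped. The authors' normalized values, which hold those spots, gave it a rise of 0.77 at 120 hr (SE 0.07, adjusted p = 4.6e-08), opposite in sign to Uqcrc1.

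Complex IV had 16 tested members, of which 4 were called lower and none higher at 120 hr (median -0.19). With limma, 1 of the 16 was above 0 (26.3% of all genes) and 7 were below 0 (24.1%) at an unadjusted p under 0.05. Several subunits exist as isoforms from separate genes, known for different tissues. Cox7a1, the isoform best known from heart and skeletal muscle, had the largest fall of any member. It read 1.40, 1.70 and 1.49 before Tet, 1.28, 1.25 and 1.47 after 24 hr, 0.94, 0.89 and 0.89 after 48 hr, 0.29, 0.20 and 0.22 after 72 hr, and 0.18, -0.00 and -0.02 after 120 hr. The groups at 0 and 24 hr overlapped, and every array from 48 hr on lay below both. It fell by 0.62 after 48 hr, 1.29 after 72 hr and 1.48 after 120 hr (SE 0.09, adjusted p = 1.6e-10, 2.78-fold). The mesoderm and muscle list had 1 of 5 markers called higher and none lower at that time, and its summed Cy3 signal was 11641 to 15259 at 0 hr and 9259 to 12970 at 120 hr. Its part in the Cox7a1 result was not tested.

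Cox7a2, the widely expressed isoform, fell by 0.83 at 120 hr (SE 0.23, adjusted p = 0.0065), while Cox7a2l stood at 0.05 and was not called. Cox6b2, known as a testis isoform, was called lower from 24 to 96 hr, with its lowest value of -0.83 at 72 hr, and stood at -0.56 at 120 hr. At 24 hr it missed the fold limit with processed signals and with the authors' values (-0.46 in both) and without replicate 3 of 0 hr (-0.57). Its widely expressed counterpart Cox6b1 stayed between -0.20 and -0.01. Cox6a1, the general isoform of another regulatory subunit, read -0.82, -0.67 and -0.53 before Tet, -1.35, -1.38 and -1.28 after 24 hr and -0.26, -0.48 and -0.51 after 120 hr. It dipped by 0.66 at 24 hr (adjusted p = 2.4e-06), and by 120 hr it stood at 0.26 above 0 hr, under the fold limit. Cox6a2, the muscle counterpart, lay between -0.06 and 0.03. Cox4i1 reached -0.53 at 120 hr (adjusted p = 9.6e-07), under the fold limit. Cox4i2 and Cox8b were above the negative controls on only 2 of 18 arrays, so their small changes carry little information. Cox5a, a subunit of the matrix side, fell by 0.65 at 120 hr (adjusted p = 2.9e-07), whereas Cox5b stood at -0.00. Cox7c fell by 0.92 (SE 0.16, adjusted p = 1.0e-04), with a change of -0.86 in its Cy5 reference signal as well. No difference between isoforms was tested.

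Complex V, the ATP synthase, had calls in both directions at 120 hr, with 4 of 13 lower, 2 higher and a median of 0.06. Atp5a1 and Atp5b encode the alpha and beta subunits of the catalytic head. Atp5b read 1.08, 1.02 and 1.52 before Tet, 0.36, 0.34 and 0.45 after 48 hr, and 0.30, 0.73 and 0.75 after 120 hr. One array at 24 hr (0.19) stood with the later times and the other two (1.07 and 1.33) with 0 hr. Atp5a1 had the same split at 24 hr, with 1.67 on one array, 0.37 on another and no usable spot on the third. Atp5b fell by 0.88 after 72 hr and 0.61 after 120 hr (SE 0.22, adjusted p = 0.028). Atp5a1 fell by 1.06 after 72 hr and 0.76 after 120 hr (SE 0.24, adjusted p = 0.017). On Uqcrc1 the low array at 24 hr (0.01) was the same one. Atp5j2, which encodes subunit f of the membrane part, fell by 0.72 at 120 hr.

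Atp5l, subunit g, was called higher from 72 hr. It read -1.22, -1.02 and -1.08 before Tet and -0.07, -0.39 and -0.39 after 120 hr, without overlap, and rose by 0.82 (SE 0.08, adjusted p = 2.3e-07). Atp5k (subunit e) and Atp5mpl (a small proteolipid of the complex) were called higher at 24 hr, by 0.66 and 0.63, and stood at 0.33 and 0.09 at 120 hr. Atp5k stayed under the fold limit at 24 hr with Cy3 alone (0.51), with processed signals (0.54) and with the bleaching correction (0.55). Atp5mpl lost its 24 hr call with the bleaching correction (0.58), with the error variance of the methods (adjusted p = 0.053), and without replicate 3 of 0 hr (0.53) or of 24 hr (0.46).

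The ring of subunit c, through which the protons pass, is built from 3 genes, Atp5g1, Atp5g2 and Atp5g3, whose mature proteins are alike. Atp5g2 and Atp5g3 took opposite courses. Atp5g2 read 0.13, 0.31 and 0.26 before Tet, -0.19, -0.24 and -0.22 after 48 hr and -0.80, -0.75 and -0.81 after 120 hr. It fell by 1.02 (SE 0.06, adjusted p = 7.6e-11, 2.03-fold). Atp5g3 read -0.28, -0.16 and 0.09 before Tet, 0.33, 0.53 and 0.57 after 48 hr and 0.70, 0.67 and 0.70 after 120 hr. It rose by 0.88 after 96 hr and 0.81 after 120 hr (SE 0.09, adjusted p = 2.3e-06, 1.75-fold). In neither gene did the arrays at 120 hr overlap those at 0 hr. For Atp5g1 the brighter probe stood at -0.01 and the other at -0.86 at 120 hr, so its course was not settled. The Cy3 signal alone gave -1.33 for Atp5g2 and 0.84 for Atp5g3.

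**Figure D3:**
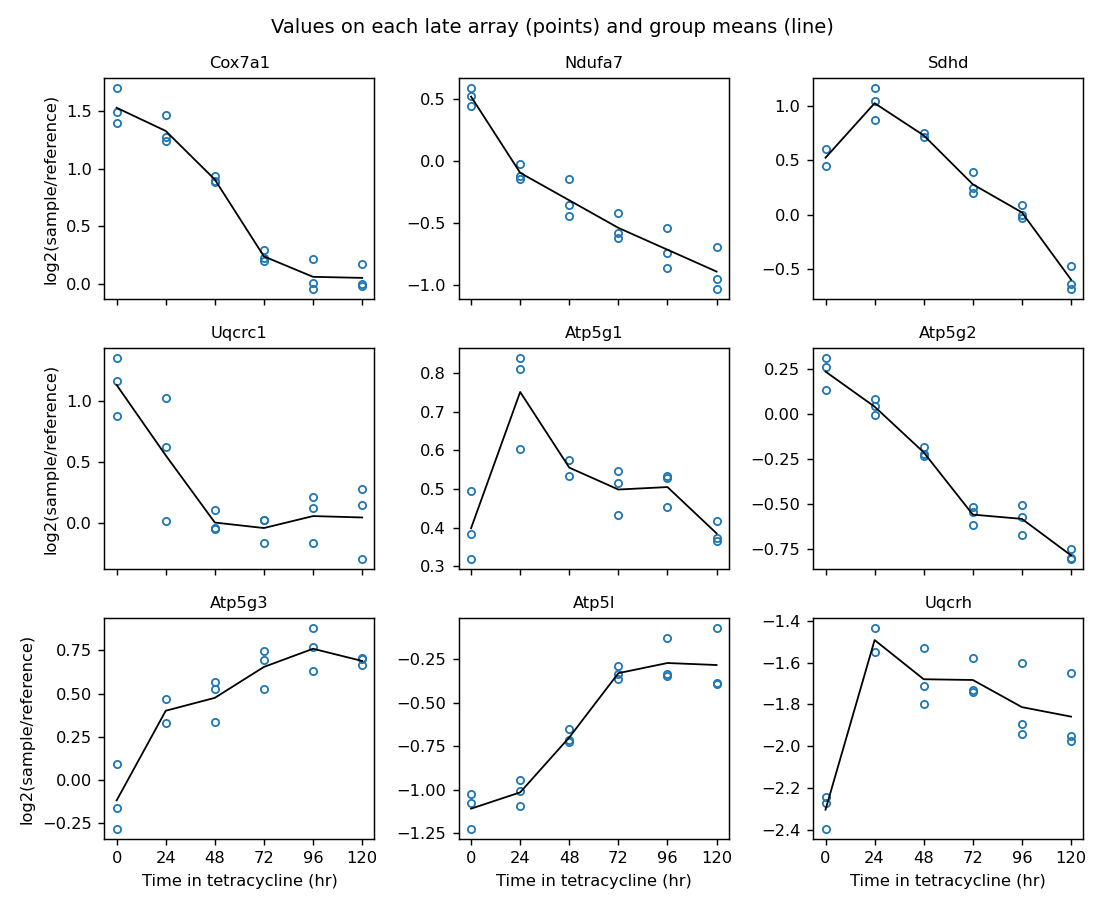
log2(sample/reference) on each late array (points) and group means (lines) against time in tetracycline (hr) for 9 members, with 3 arrays a time less unusable spots. Each panel has its own vertical scale. Cox7a1, Ndufa7, Atp5g2 and, after 24 hr, Sdhd run downwards, Atp5g3 and Atp5l upwards, and Uqcrh is highest at 24 hr.

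The promoters of the 3 subunit c genes and of Uqcrc1 are shown because Atp5g2 and Atp5g3 encode the same subunit and were called in opposite directions, and Uqcrc1 fell with Atp5g2. Each window runs from 250 bases before to 50 bases after the RefSeq start on GRCm38.p6, read on the gene's strand, and capitals mark a motif match other than the GC box, which is not marked.
Atp5g1, chr11:96075582-96075881, minus strand: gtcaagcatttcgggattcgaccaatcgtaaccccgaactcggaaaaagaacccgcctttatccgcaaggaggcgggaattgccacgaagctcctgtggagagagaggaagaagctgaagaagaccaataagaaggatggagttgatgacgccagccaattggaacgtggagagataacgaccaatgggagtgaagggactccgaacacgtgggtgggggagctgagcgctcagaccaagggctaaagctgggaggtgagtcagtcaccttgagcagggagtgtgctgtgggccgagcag
Atp5g2, chr15:102670998-102671297, minus strand: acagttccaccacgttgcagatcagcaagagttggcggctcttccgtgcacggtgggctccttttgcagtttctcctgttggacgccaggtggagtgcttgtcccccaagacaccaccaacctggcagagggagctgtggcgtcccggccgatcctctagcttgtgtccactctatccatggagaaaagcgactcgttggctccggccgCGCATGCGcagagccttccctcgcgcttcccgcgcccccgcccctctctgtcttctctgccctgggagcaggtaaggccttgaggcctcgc
Atp5g3, chr2:73911277-73911576, minus strand: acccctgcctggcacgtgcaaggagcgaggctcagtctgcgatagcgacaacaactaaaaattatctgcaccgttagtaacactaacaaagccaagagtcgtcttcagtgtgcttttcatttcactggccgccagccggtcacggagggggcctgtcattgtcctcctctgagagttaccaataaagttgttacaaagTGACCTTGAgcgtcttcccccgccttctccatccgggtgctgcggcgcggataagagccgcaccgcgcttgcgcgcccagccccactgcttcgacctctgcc
Uqcrc1, chr9:108936398-108936697, plus strand: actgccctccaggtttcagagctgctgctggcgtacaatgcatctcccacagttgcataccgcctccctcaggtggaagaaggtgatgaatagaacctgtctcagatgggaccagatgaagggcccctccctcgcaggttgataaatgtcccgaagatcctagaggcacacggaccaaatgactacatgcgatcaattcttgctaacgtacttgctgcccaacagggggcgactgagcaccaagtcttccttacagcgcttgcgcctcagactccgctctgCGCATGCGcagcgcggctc
Windows were found for 63 of the 77 genes (67 windows). Motifs were searched on both strands. The capitals in Atp5g2 (from base 210) and Uqcrc1 (from base 282) are CGCATGCG, the palindromic centre of the motif of NRF1, a transcription factor of many respiratory genes. The capitals in Atp5g3 (from base 199) are TCAAGGTCA on the opposite strand, the motif of the estrogen-related receptors (ERR). Atp5g1 held none of the motifs searched.

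Among members' windows 14.9% held CGCATGCG, against 1.87% of all 32851 windows of that length, and the 10-letter NRF1 motif that contains it stood in 8.96% against 0.971%. Genes with CGCATGCG were Atp5g2, Atp5j, Atp5k, Atp5l, Cox6a1, Ndufa8, Ndufaf4, Ndufaf5, Uqcr11 and Uqcrc1. Of the 9 tested on late arrays (all but Uqcr11), 3 were called lower at 120 hr (Atp5g2, Ndufaf5 and Uqcrc1) and 1 higher (Atp5l), against 26.9% and 4.48% of all members tested. AAGATGGCG, a motif of YY1, stood in 8.96% of members' windows against 1.40%, and CCGGAAGT, a motif of ETS factors, in 4.48% against 3.89%. TCAAGGTCA stood in 2.99% against 0.423%, in Atp5g3, called higher at 120 hr, and Sdhd, called lower. GGGCGG, the GC box of SP1, stood in 47.8% against 35.7%. The shares describe letters in a window, and no binding was measured.

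Genes around the chain did not share one direction on late arrays at 120 hr, when 12.1% of all genes were called higher and 8.53% lower. Of the tricarboxylic acid cycle and pyruvate entry list, 6 of 20 measured genes were called higher and 4 lower. Mdh2, the malate dehydrogenase of the cycle, rose by 1.27, and Pdha1, a subunit of pyruvate dehydrogenase, fell by 0.92. Of mitochondrial transcription and biogenesis genes, 5 of 10 were called higher and 1 lower. Esrra, the estrogen-related receptor alpha, rose by 1.44 (SE 0.05, adjusted p = 3.9e-13), Ppargc1b, a coactivator of respiratory genes, rose by 1.47, and Tfam, which packages and transcribes mitochondrial DNA, fell by 0.78 (SE 0.10, adjusted p = 5.8e-06). Of carriers, 1 of 6 was called lower, the ADP/ATP carrier Slc25a5 (-1.45). Cytochrome c and electron carrier genes had 2 of 6 lower (Cyct and Dhodh) and assembly factors outside the rule 2 of 8 (Foxred1 and Ecsit), with none higher. Glycolysis had 2 of 18 higher and 6 lower, with the glucose transporter Slc2a1 at 3.49 and the lactate dehydrogenase Ldhb at -3.42.

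Early arrays showed few calls on the members. By the F test over all times 1 of 76 members, Sdhaf4, was called higher (3.29% of all genes) and none lower (1.95%). The F test gave 13 members at an unadjusted p under 0.05, 17.1% against 25.5% of all genes. The calls at single times below were adjusted separately. At 3 hr no member was called either way (0% of all genes higher, 0.00256% lower), and 6 had an unadjusted p under 0.05 (7.89% against 6.24%). At 6 hr the 1 called was Uqcrc1, higher by 1.15 (SE 0.22, adjusted p = 0.040), where 2.07% of all genes were called higher and 0.0974% lower. Uqcrc1 read 1.09 and 1.12 before Tet and 2.28 and 2.25 after 6 hr, with changes of 0.39 in its Cy3 signal (adjusted p = 0.25) and -0.68 in its Cy5 reference signal. At 12 hr none was called (0.221% higher, 0.382% lower), with 6 at an unadjusted p under 0.05 (7.89% against 20.8%). At 24 hr 6 members were called higher (6.92%) and none lower (1.92%). At an unadjusted p under 0.05, 15 members stood above 0 (19.7% against 17.1% of all genes) and 12 below (15.8% against 21.9%).

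The 6 members called at 24 hr were Ndufb11, Ndufa6, Ndufaf6, Ndufv1, Atp5mpl and Sdhaf4. At that time 5 of 11 trophoblast, 2 of 4 fibroblast and 1 of 6 primitive endoderm markers were called higher, and 2 of 9 ES cell, 1 of 5 mesoderm and muscle and 1 of 4 neural markers lower. The summed Cy3 signal went from between 24020 and 26918 to between 39146 and 42123 for the trophoblast markers, and from between 16397 and 18459 to between 24989 and 28420 for the fibroblast markers. Their part in the 6 calls was not tested. Ndufb11, an accessory subunit of the membrane arm, read -0.58 and -0.79 before Tet and 0.76 and 1.46 after 24 hr, and the ratio rose by 1.80 (SE 0.35, adjusted p = 0.0095). Its Cy3 sample signal changed by 0.02 over that time and its Cy5 reference signal by -1.75. Ndufa6, Ndufaf6, Ndufv1 and Atp5mpl showed the same pattern, with ratios up by 1.202, 1.10, 0.83 and 0.76, Cy3 changes of 0.03 to 0.12 and Cy5 changes of -1.17 to -0.71. The reference was the same RNA on every array. Sdhaf4, an assembly factor of succinate dehydrogenase, read -0.18 and -0.26 before Tet and 0.33 and 0.57 after 24 hr. Its ratio rose by 0.67 (SE 0.12, adjusted p = 0.0059), with 0.33 from Cy3 (adjusted p = 0.028) and -0.35 in Cy5. With the Cy3 signal alone none of the 6 was called. With the correction for Cy5 bleaching of the study's methods 2 of the 6 were called, and with the authors' normalized values none.

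The index of Cy5 bleaching is the mean Cy5 signal of an array over the 100 genes whose Cy5 signal varied most, on a log scale centred over the set, and a low index means a dim reference. It moved with time on early arrays. It was 0.80 and 0.84 before Tet, 0.50 and 0.20 after 3 hr, -0.03 and -0.70 after 6 hr, 0.50 and -0.56 after 12 hr, and -0.46 and -1.08 after 24 hr. The index at 24 hr did not overlap that at 0 hr. On late arrays it ran from -0.32 to -0.18 at 0 hr and from 0.01 to 0.10 at 120 hr. Its part in the calls was not tested beyond these alternatives. Probes of the same gene also disagreed on early arrays. At 24 hr the probes of Ndufv1 read 0.83 and -0.02, those of Ndufb11 1.80 and 0.27, those of Cox5b 0.24 and 2.02 and those of Cox6c -0.12 and 0.98. Cox6a1 was saturated in Cy3 on 9 of 10 early arrays and Atp5g3 on 7, so their values there are limited at the top.

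**Figure D4:**
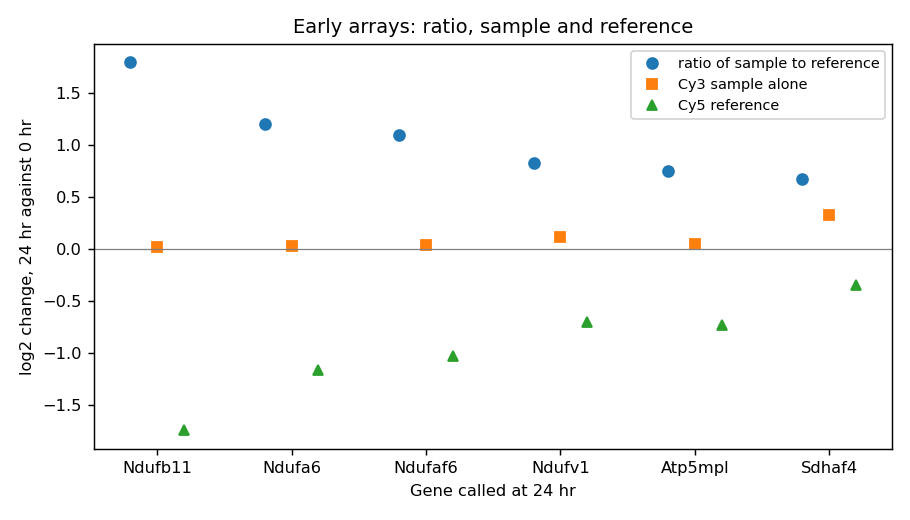
log2 change between 0 and 24 hr on early arrays (2 arrays a time) for the 6 members called, for the ratio of sample to reference (circles), the Cy3 sample signal alone (squares) and the Cy5 reference signal (triangles). The circles lie at 0.67 to 1.80, the squares at 0.02 to 0.33 and the triangles at -1.75 to -0.35.

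Both experiments measured 24 hr of Tet, and 66 members had a probe of identical sequence on both designs. The 24 hr change differed between late and early arrays for 13 of them (limma's interaction, against 14.4% of 18877 genes and probes). It was more positive on late arrays for 5, and more negative for 8. Sdhd was 0.50 on late and -0.34 on early arrays, a difference of 0.84 (SE 0.16, adjusted p = 0.0040), and with Cy3 alone the difference was 0.90 (adjusted p = 0.010). For Ndufa6 the difference was -1.46 (SE 0.27, adjusted p = 0.0033) on the ratio and -0.33 (adjusted p = 0.42) with Cy3 alone, but -1.503 (adjusted p = 0.0051) with the bleaching correction. Uqcrh differed by 0.96 (adjusted p = 0.0021) and by 0.60 (adjusted p = 0.089) with Cy3 alone. With Cy3 alone 6 members were called, of which only Sdhd was among the 13. The other 5 were Atp5g1, Ndufa7, Ndufab1, Ndufaf4 and Ndufb4. With the bleaching correction 9 were called, 7 of them among the 13. Without replicate 2 of early 0 hr the count was 7. Pou5f1 differed by 0.61 (SE 0.43, adjusted p = 0.34). Experiment, array design and dye behaviour cannot be told apart here.

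In the Nanog experiment few members were called in any comparison. The known targets of the media moved in every line. Socs3, induced by LIF, read 0.42 to 1.04 in LIF and -2.25 to -1.64 in LIF-free medium over the 4 lines, and Cyp26a1, induced by RA, read -0.03 to 0.47 in LIF and 2.61 to 3.10 in RA. With 3 days of culture in LIF-free medium none of the 76 members was called (0.939% of all genes). At an unadjusted p under 0.05 limma gave 4 above 0 (5.26% against 8.22% of all genes) and 10 below (13.2% against 6.10%). The members furthest from 0 were Ndufaf6 (0.52) and Ndufab1 (0.39) above and Cox7a1 (-0.47) and Ndufb4 (-0.42) below, all with adjusted p above the threshold.

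RA against LIF called no member at 1.5-fold either (5.85% of all genes), with 20 above 0 (26.3% against 16.2%) and 6 below (7.89% against 10.6%) at an unadjusted p under 0.05. By adjusted p alone 6 members were higher (10.2% of all genes) and 1 lower (4.24%). The 6 were Ndufab1 (0.47), Ndufb7 (0.42), Ndufb11 (0.34), Cox5b (0.33), Atp5g3 (0.31) and Cox5a (0.26), and the lower one was Cox6b2 (-0.20). Ndufb11 read -0.16, 0.11, -0.01 and -0.21 in LIF and 0.48, 0.35, 0.23 and 0.03 in RA for episomalNanog, integratedNanog, MG1.19 and ES129.3. Its value was higher in RA in each of the 4 lines, by 0.64 in episomalNanog and 0.23 to 0.24 in the other lines. On the same arrays RA raised 6 of 10 trophoblast, 4 of 6 primitive endoderm, 2 of 5 mesoderm and muscle and 3 of 4 fibroblast markers and lowered 4 of 9 ES cell markers, and their part in the members' changes was not tested.

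RA against LIF-free medium called 2 members (5.66% of all genes). Cox7a1 read 0.23, 0.33, 0.23 and 0.01 in LIF-free medium and 0.73, 1.86, 0.85 and 1.187 in RA, in the same order of lines. All RA arrays lay above all LIF-free arrays, and the difference was 0.96 (SE 0.19, adjusted p = 0.012). Ndufaf6, an assembly factor of complex I, read 1.46, 1.01, 1.73 and 1.92 in LIF-free medium and 0.41, 0.52, 0.51 and 0.47 in RA, also without overlap. It was lower in RA by 1.05 on the log2 scale (SE 0.17, adjusted p = 0.0050). With Cy3 alone the differences were 0.97 and -1.02. In the same comparison 2 of 5 mesoderm and muscle, 4 of 6 primitive endoderm, 4 of 10 trophoblast and 2 of 4 fibroblast markers were called higher and 2 of 9 ES cell markers lower, and their part in these differences was not tested.

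The integrated clone was compared with ES129.3 and the episomal clone with MG1.19 over the 3 media. The media stood as replicates, so the SE and p-values do not measure spread between clones or cultures. On the Nanog probe the difference was 0.75 in integratedNanog (adjusted p = 0.07) and -0.57 in the line labelled episomalNanog (adjusted p = 0.43), and neither was called. The sign of the latter ran against its label on this 1 probe, and whether the label or the probe accounts for it was not tested. By real-time PCR the study reported Nanog raised in both clones, and more in the episomal clone, which is the direction of the labels. That PCR is not analysed here. In integratedNanog 1 member was called (4.18% of all genes). Ndufab1 read 0.19, 0.41 and 0.48 in the clone and 1.05, 1.25 and 1.02 in ES129.3 in LIF, LIF-free and RA medium, without overlap. In the same media it read 0.04, 0.57 and 0.79 in MG1.19 and 0.02, 0.63 and 0.89 in the line labelled episomalNanog. ES129.3 was thus the highest of all lines in each medium. Ndufab1 was lower in the clone than in ES129.3 by 0.75 on the log2 scale (SE 0.15, adjusted p = 0.020). Without the LIF-free arrays it was no longer called (adjusted p = 0.27). The Ndufab1 call was lost in 2 left-out settings in all, and with the error variance of the methods. In the clone 2 of 9 ES cell markers were called higher, and 3 of 10 trophoblast, 1 of 5 mesoderm and muscle and 1 of 4 fibroblast markers were called lower. The summed Cy3 signal of the trophoblast markers was 8940 to 41169 in the clone and 40791 to 83245 in ES129.3 over the media, and that of the fibroblast markers was 8070 to 10737 and 19132 to 52725. Their part in the members' differences was not tested. By adjusted p alone 3 members were higher (3.43%), namely Ndufv3, Ndufaf3 and Cox6b2, and 4 lower (4.57%), namely Ndufab1, Ndufc1, Atp5md and Atp5g3. Of the complex V members 14 of 15 lay below 0 with a median of -0.26 (49.6% and 0.00 for all genes). In the line labelled episomalNanog 13 of 15 did with a median of -0.18 (57.5% and -0.02). Over all complexes, 51 of 76 members lay below 0 in integratedNanog and 63 of 76 in the line labelled episomalNanog. In the line labelled episomalNanog no member was called (0% of all genes), and limma gave 9, all below 0, at an unadjusted p under 0.05 (11.8% against 6.33% of all genes).

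Most members were lower in LIF on the array of the line labelled episomalNanog than on its other arrays. In LIF 70 of 76 members were lower on its array than on that of MG1.19, with a median difference of -0.40 (-0.05 for all genes). In LIF-free and RA medium the median differences were -0.02 and 0.01. The integrated clone was lower than ES129.3 in LIF as well, for 58 of 76 members with a median of -0.20 (-0.01 for all genes), and its medians in LIF-free and RA medium were -0.09 and -0.07. The median of RA minus LIF was 0.43 in that line and -0.07, -0.00 and 0.02 in ES129.3, MG1.19 and integratedNanog. LIF-free minus LIF was 0.28 in it and -0.09, -0.11 and 0.01 in the others. With 1 array a line and medium, the line and the array cannot be told apart. Without that array the members' median change with RA was -0.01, against 0.09 with it, and 1 member was called, lower.

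**Figure D5:**
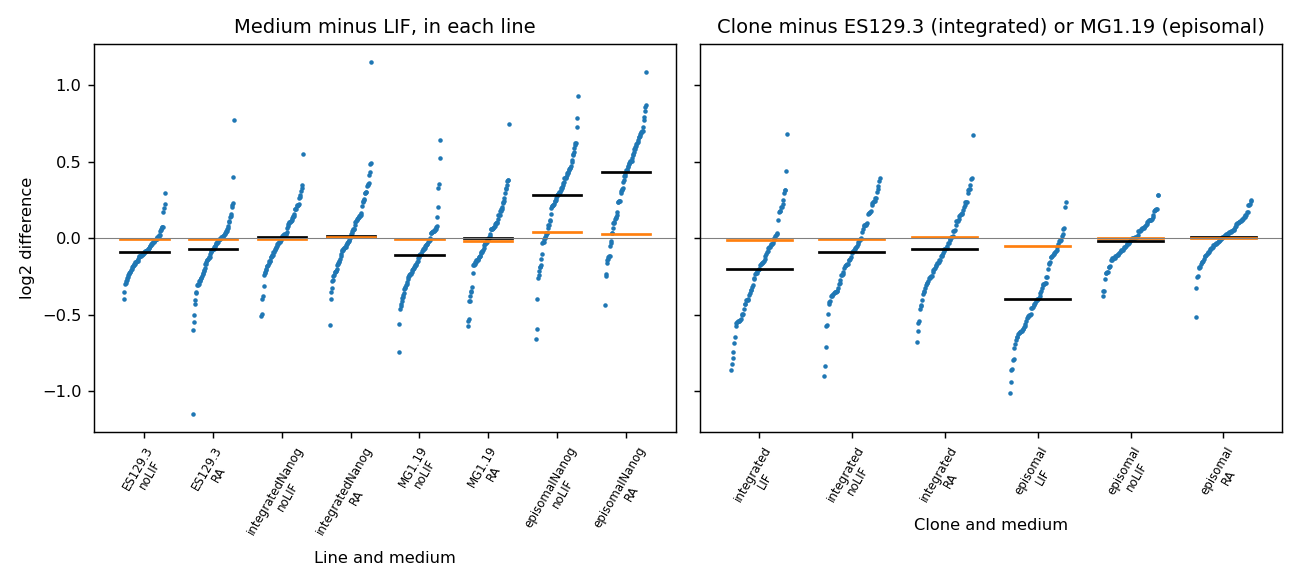
log2 difference of each of 76 members (points) between media in each line (left) and between the integrated clone and ES129.3 and between the episomal clone and MG1.19 in each medium (right), 1 array each. Black bars are the members' medians and orange bars the medians of all genes. The members' median stands at 0.43 for RA and 0.28 for LIF-free medium in episomalNanog, and at -0.40 for that clone against MG1.19 in LIF.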

How the data were processed

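The sample carried Cy3 and a universal mouse reference RNA carried Cy5 on 40 arrays of 3 Agilent designs (18 late, 10 early, 12 Nanog). The scanner files deposited by the authors hold spot intensity (mean signal and local background) and, per the file headers, Agilent Feature Extraction's processed signals and log10 ratios. A file of normalized values was also deposited by the authors, on a log10 scale, with spots replaced and Cy5 bleaching compensated. The flags of outlier and saturated spots were deposited as a score of 0 or 1. Versions and the alignment of probes to a genome are not given in the sources used here.

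The members and the gene lists were chosen with earlier results of these data known. Probes were named through accessions, through identical probes on another design or through the sequence tables of the study. On late arrays 11721 of 21052 gene probes had a name, on early arrays 16914 of 42006 and on Nanog arrays 17256 of 41006. Background was corrected with normexp (offset 50), ratios were normalized by loess within arrays, outlier and control spots were left out, and spots of a probe were averaged. The brightest probe stood for a gene and unnamed probes counted singly. Log2 ratios computed from the deposited intensity were fitted with limma 3.58.1 in R 4.3.3 over all probes (lmFit, eBayes, two-sided, Benjamini-Hochberg), with time as groups in the late and early sets, with line and medium in the Nanog set, and with an interaction for 24 hr. The number of arrays limits the precision. Nothing in the labels says whether arrays of a group came from separate cultures, so p-values may measure technical spread only.

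Genes named are up to 6 called members with the largest change each way, isoform sets, the catalytic core (1 gene is not reported here) and members whose probes disagree. Some members called at single times were named in addition, after their values were seen. Alternatives were processed signals, Cy3 alone (quantile), bleaching correction, the authors' values, dim probes left out, means over probes, the error variance of the methods, adjusted p alone, a replicate block and arrays left out. The fits were tested on simulated data.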

Additional observations from a re-analysis of the deposited data

Results flagged for a closer look

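By the test of the difference, the 24 hr change of 13 of 66 members differed between experiments, against 14.4% of 18877 genes and probes. It was more positive on late arrays for Uqcrh (0.96), Sdhd (0.84), Atp5g3 (0.69), Ndufa8 (0.69) and Atp5k (0.66). It was more negative on late arrays for Cox6a1 (-1.53), Ndufa6 (-1.46), Ndufaf6 (-1.45), Ndufv1 (-1.22), Uqcrc1 (-1.18), Cox6c (-0.90), Ndufb8 (-0.62) and Ndufb9 (-0.60). On Cox6a1 the shared probe gave 0.87 (SE 0.50) on early arrays, where the brightest probe of the gene gave -0.17. Atp5g3 was saturated in Cy3 on 7 of 10 early arrays. With Cy3 alone the difference of Sdhd was 0.90 (adjusted p = 0.010), that of Ndufv1 -0.59 (adjusted p = 0.058), that of Uqcrc1 -0.52 (adjusted p = 0.36) and that of Cox6c 0.07 (adjusted p = 0.86). It was -0.62 (adjusted p = 0.12) for Cox6a1 and -0.24 (adjusted p = 0.34) for Ndufaf6. Of the 13, only Sdhd was called with Cy3 alone, and 7 were called with the bleaching correction (Atp5k, Cox6a1, Ndufa6, Ndufa8, Ndufb9, Sdhd and Uqcrh).

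The RA minus LIF difference of Ndufb11 in the line labelled episomalNanog, 0.64, stood apart from the other lines by a test for a single far value in a group of 4. The median over all 76 members on the same pair of arrays was 0.43, against -0.07 to 0.02 in the other lines. Such a test singles out about 1 in 20 groups by chance.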

How the results depend on the processing

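On late arrays 29 to 33 members were called at some time and 20 to 22 at 120 hr with any 1 array left out. By adjusted p alone the counts were 55 and 46 (50.0% and 44.7% of all genes), and the authors' normalized values gave 12 at 120 hr. On early arrays the count of 1 member called over all times became 0 with Cy3 alone and with the error variance of the methods, 2 without dim probes, 3 with the mean of all probes, and 4 with the bleaching correction. Leaving out 1 early array at a time gave 0 to 10, with 0 without either array at 0 hr, 2 to 4 without either array at 6 or 12 hr or replicate 2 of 24 hr, and 10 without replicate 1 of 24 hr. The lone array left in such a group is assumed to vary like the others. The share of all genes called with an array left out, here and below, is not given, so these counts cannot be set against it.

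Deviations of late arrays that share a number correlated by 0.15 on average (-0.43 to 0.75), against -0.07 for other numbers. On early arrays the averages were 0.11 (-0.14 to 0.34) and -0.11. The main fits did not pair arrays by number. With a replicate block 31 members were called at some time and 21 at 120 hr on late arrays, and 3 on early arrays.

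The difference between late and early arrays at 24 hr was called for 6 members with Cy3 alone (only Sdhd among the 13) and for 7 to 17 with 1 array left out (7 without replicate 2 of early 0 hr). RA against LIF gave 7 by adjusted p alone, 0 to 1 with 1 line left out, and 1 without the episomalNanog array in LIF (chosen after seeing the data). IntegratedNanog gave 2 with Cy3 alone, 0 with the error variance of the methods, 7 by adjusted p alone and 0 to 1 with 1 line or medium left out. LIF-free medium and the line labelled episomalNanog gave 0 throughout. Of 561 recomputed values of named genes, 502 kept direction and call, 57 kept direction only, and 2 reversed. Those 2 were Ndufv1 at 24 hr on early arrays, at -0.016 with the bleaching correction and -0.067 with the authors' values. The causes were not tested. A block on scan date was not run, since the files used give none that splits a set.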
